A study of Homo sapiens with 18 samples.

Results

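This account describes 8 genes of OCI-AML1 cells, a human acute myeloid leukaemia line. They were 6 genes of the intracellular serpin clade, SERPINB1, SERPINB2, SERPINB6, SERPINB8, SERPINB9 and SERPINB10, together with PLAU and PLAUR, which encode urokinase and its receptor. They were taken by symbol from 60609 gene identifiers. They were chosen by measured values of these libraries, since the list was drawn up with their differences between compound and DMSO already known. Which contrast weighed in the choice is not recorded. The values of the 8 genes are therefore given as a description, and the number of them past a threshold is printed beside the same share over all genes, with nothing read from it. Cells labelled as wild type received DMSO, the solvent control, AML874 or SEL120-34A, and RNA was taken at 8 h or at 24 h. SEL120-34A blocks CDK8 and its paralogue CDK19, the Mediator kinases, whereas the labels name AML874 only by its code. No dose is given in the labels used here, so any difference between the compounds is a difference between those treatments as applied. Each of the 6 groups held 3 libraries of polyadenylated RNA. The labels do not say that the 3 libraries of a group were separate cultures, so the spread given here may be technical.

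Urokinase is a secreted serine protease that cuts plasminogen into plasmin, a protease that dissolves fibrin and degrades matrix. Its receptor, anchored to the membrane by a lipid, holds urokinase at the cell surface, and the pair is well known from monocytes and macrophages. SERPINB2, also called plasminogen activator inhibitor type 2, inhibits urokinase and is strongly inducible in monocytic cells. Serpins trap a protease by offering it a reactive loop that is cut, after which both molecules stay joined. Most clade B serpins lack a classical signal peptide and act inside the cell. SERPINB1 inhibits neutrophil elastase, cathepsin G and proteinase 3, SERPINB9 inhibits granzyme B, SERPINB8 inhibits furin, and SERPINB6 inhibits cathepsin G. SERPINB10 is known as bomapin, a serpin of haematopoietic and monocytic cells.

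The 8 genes lie at 4 places in the genome, given here in GRCh38 with the gene models of GENCODE 29. SERPINB2 (ENSG00000197632, chr18:63871692-63903890, plus strand), SERPINB10 (ENSG00000242550, chr18:63897174-63936111, plus strand) and SERPINB8 (ENSG00000166401, chr18:63969925-64019779, plus strand) are neighbours on chromosome 18. SERPINB1 (ENSG00000021355, chr6:2832332-2842006), SERPINB9 (ENSG00000170542, chr6:2887266-2903280) and SERPINB6 (ENSG00000124570, chr6:2948159-2972165) follow each other on the minus strand of chromosome 6. PLAU (ENSG00000122861, chr10:73909177-73917497) is on the plus strand of chromosome 10, and PLAUR (ENSG00000011422, chr19:43646095-43670547) on the minus strand of chromosome 19. The models of SERPINB2 and SERPINB10 share 547 exonic bases on the same strand, which is 19.9% of the exonic bases of SERPINB2 and 20.3% of those of SERPINB10. A read from the shared bases cannot be given to either gene by position alone.

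The upstream sequences of SERPINB2 and PLAU are shown because these are the inhibitor and the protease of the urokinase reaction and their levels differed from DMSO at 24 h. Both come from RefSeq on GRCh38.p14 (SERPINB2 chr18:63887455-63887699, PLAU chr10:73910882-73911103, both plus strand) and are cut where the nearest annotated exon begins. For each gene the window of the most downstream RefSeq start was taken. These starts, 63887705 for SERPINB2 and 73911132 for PLAU, lie inside the gene models given above, downstream of where those begin. Capitals mark matches to the motifs searched.

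SERPINB2 promoter: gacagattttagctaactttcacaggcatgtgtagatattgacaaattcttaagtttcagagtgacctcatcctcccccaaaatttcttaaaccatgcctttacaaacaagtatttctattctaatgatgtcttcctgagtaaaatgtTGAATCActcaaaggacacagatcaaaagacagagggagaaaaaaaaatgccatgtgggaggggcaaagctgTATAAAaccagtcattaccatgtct

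PLAU promoter: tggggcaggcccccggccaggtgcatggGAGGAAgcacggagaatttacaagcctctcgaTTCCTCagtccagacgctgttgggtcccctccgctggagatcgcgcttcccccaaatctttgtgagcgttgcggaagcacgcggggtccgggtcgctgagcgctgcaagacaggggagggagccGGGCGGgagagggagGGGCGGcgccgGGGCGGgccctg

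In the SERPINB2 sequence the capitals are an AP-1 match, TGAATCA, 102 bases before the RefSeq start, and a TATA box, TATAAA, 30 bases before it. In the PLAU sequence they are a pair of PU.1 matches, GAGGAA on one strand or the other, 222 and 190 bases before the start, and 3 Sp1 matches, GGGCGG, at 66, 51 and 40 bases. The motifs searched on both strands were AP-1 (TGANTCA), the cAMP response element (TGACGTCA), EGR1 (GCGNGGGCG), NF-kappaB (its consensus, by name alone), PU.1 (GAGGAA), Sp1 (GGGCGG) and the TATA box (TATAAA). Among 35116 RefSeq promoters of 250 bases upstream, 6.57% held the AP-1 letters, 10.7% the TATA letters, 23.6% the PU.1 letters and 42.6% the Sp1 letters. RefSeq promoters were matched for 7 of the 8 genes, in 11 windows, all but SERPINB10. AP-1 letters were in 3 of the 11 windows, those of SERPINB2, SERPINB8 and PLAUR. Sp1 letters were in 6 of the 11, NF-kappaB letters in 4, TATA letters in 3, EGR1 letters in 2, PU.1 letters in 1 and the cAMP response element in 0. NF-kappaB, searched as a consensus of 10 letters, was in 22.6% of all promoters, EGR1 in 8.4% and the cAMP response element in 1.65%. These matches describe letters only and say nothing of binding.

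The libraries held 98975944 to 142496541 reads counted in genes on the reverse strand, and 25852 to 28631 genes had a read. A count of 0 allows up to 3 reads, or 0.0211 to 0.0303 CPM, a limit that covers counting error only. Levels are given as CPM, the reads of a gene relative to the depth of its library, scaled by the trimmed mean of M values. Of the 7 myeloid leukaemia markers listed, 5 reached 1 CPM in every group, while CSF2RA had 0 reads and ANPEP 22 reads in all libraries together. A gene count of 0 does not by itself show that CSF2RA was not expressed. Among 8 monocyte and macrophage markers, CSF1R reached 1 CPM in every group and MSR1 in AML874 at 24 h alone, and CD14 was near 0. In the group of AML874 at 24 h, 1 library stood apart. This library, replicate 1, held 265 reads of EPCAM, KRT8, KRT18, KRT19 and CDH1, epithelial markers, a summed level of 2.01 CPM, against 0 to 4 reads in each of the other 17 libraries. It also held fibroblast markers at a summed 0.432 CPM, against 0.136 CPM or less elsewhere. The log2 differences of single genes and the list counts for AML874 at 24 h are also given without this library.

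SERPINB2 was low in 15 libraries and higher in the 3 libraries of SEL120-34A at 24 h. Its level was 2.35, 1.74 and 1.81 CPM with DMSO at 8 h. AML874 at 8 h gave 1.61, 1.41 and 1.88 CPM, and SEL120-34A at 8 h gave 2.28, 1.65 and 2.50 CPM. The 3 groups overlapped at 8 h. At 24 h the level was 2.69, 2.01 and 2.57 CPM with DMSO and 2.85, 2.59 and 2.74 CPM with AML874. SEL120-34A at 24 h gave 9.35, 9.51 and 7.42 CPM, so that its lowest library was above every other library of the series. The log2 difference from DMSO at 24 h was 1.85 ± 0.14 (SE) with SEL120-34A, a fold of 3.60 with a 95% interval of 2.95 to 4.41. With AML874 at 24 h it was 0.17 ± 0.15, with a 95% interval of -0.14 to 0.48, and 0.14 ± 0.18 without the library that held epithelial reads. Between the compounds at 24 h the log2 difference of SERPINB2 was -1.68 ± 0.14, AML874 minus SEL120-34A, with an interval of -1.97 to -1.39, and -1.71 ± 0.17 without that library. At 8 h the same difference was -0.40 ± 0.16 and the libraries of the compounds overlapped.

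SERPINB10, whose gene starts inside the SERPINB2 model, was also low in 15 libraries and higher in the 3 libraries of SEL120-34A at 24 h. Its level at 8 h was 1.46, 1.15 and 1.07 CPM with DMSO, 1.52, 1.32 and 1.42 CPM with AML874 and 1.28, 1.27 and 1.44 CPM with SEL120-34A. All 3 treatments overlapped at that time. At 24 h DMSO gave 2.34, 1.98 and 2.03 CPM and AML874 gave 2.61, 1.98 and 2.24 CPM, which also overlapped. SEL120-34A at 24 h gave 6.30, 6.52 and 5.95 CPM, above all other libraries. The log2 difference from DMSO was 1.56 ± 0.10 with SEL120-34A at 24 h, a fold of 2.95 with a 95% interval of 2.56 to 3.41. It was 0.11 ± 0.11 with AML874 at 24 h, and -0.00 ± 0.12 without the library that held epithelial reads. Between the compounds at 24 h the log2 difference was -1.45 ± 0.10, and -1.57 ± 0.11 without that library.

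**Figure D1:**
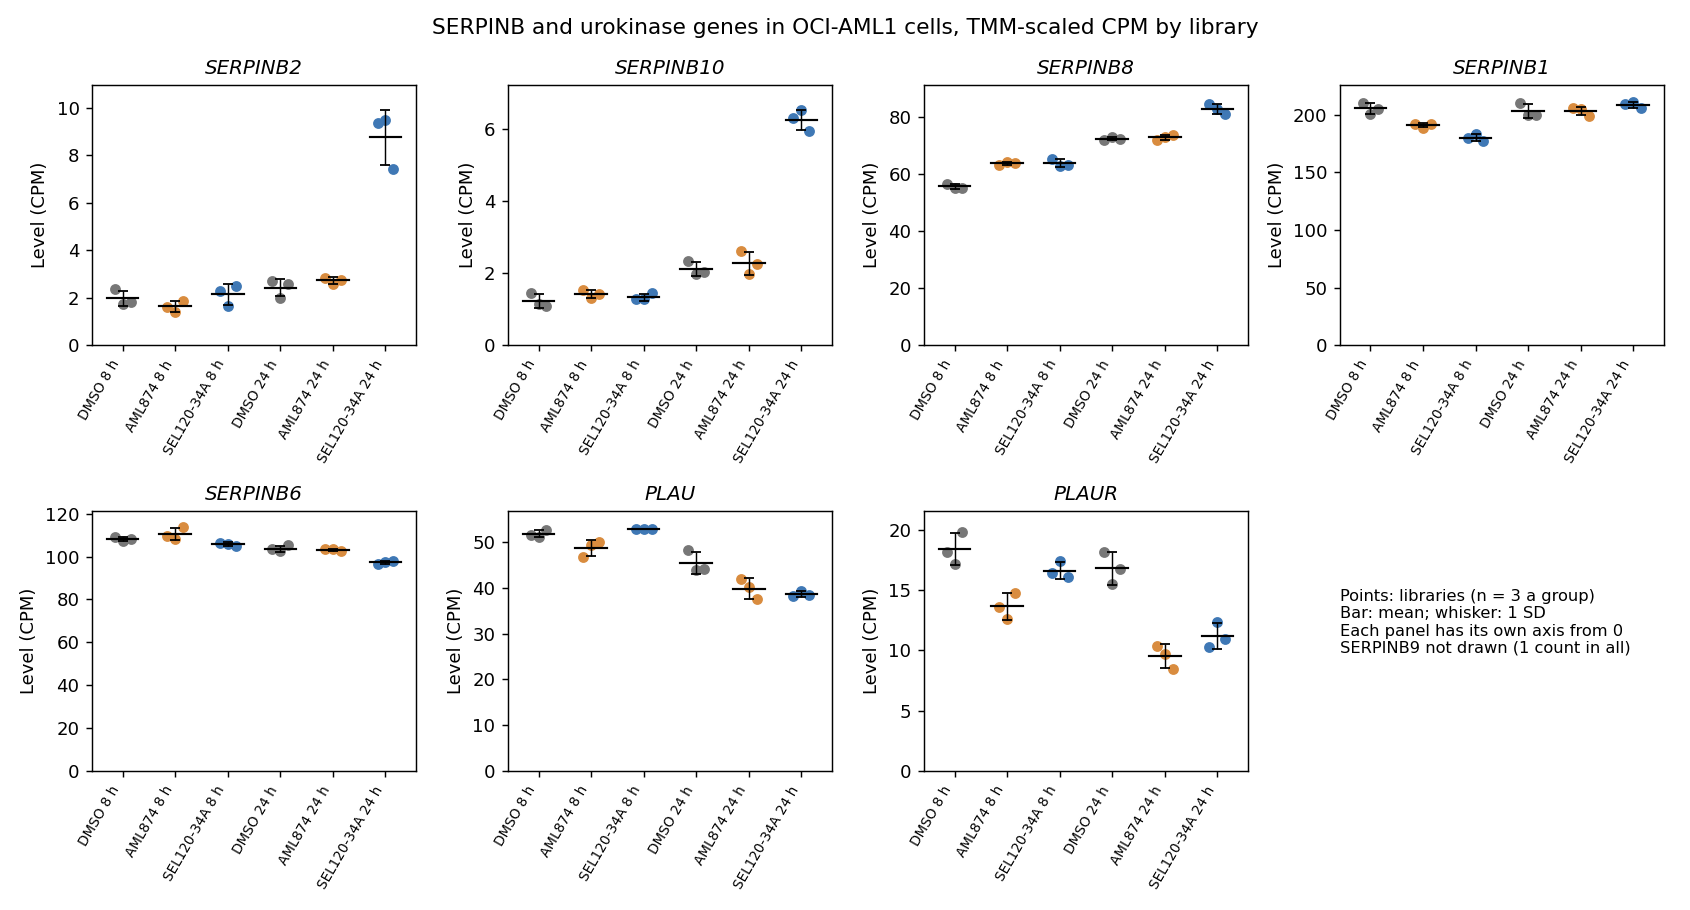
Level in CPM (y axis, from 0, a separate scale in each panel) of 7 of the genes in each library, by treatment and time (x axis). Points are libraries, bars the mean and whiskers 1 SD of 3 libraries. SERPINB2 and SERPINB10 stand at 7.42 to 9.51 and 5.95 to 6.52 CPM with SEL120-34A at 24 h, above all other libraries, while PLAUR is lowest with AML874 at 24 h.

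Because SERPINB2 and SERPINB10 share exons, the reads were also taken from the expected counts of RSEM, which divides shared reads by a model. For SERPINB2, RSEM gave 1.43 to 1.71 times the gene count, with a median of 1.63 over the 18 libraries. For SERPINB10 it gave 0.827 to 0.936 times the gene count, and for SERPINB1, SERPINB6, PLAU and PLAUR 0.882 to 0.985 times. The ratio of both genes summed was 1.22 to 1.40. The ratio of SERPINB2 had a mean of 1.64 in SEL120-34A at 24 h, 1.54 in AML874 at 24 h and 1.66 in DMSO at 24 h. Every AML874 library at 24 h lay below every DMSO and SEL120-34A library at 24 h. At 8 h the mean was 1.53 in SEL120-34A, 1.63 in AML874 and 1.61 in DMSO, and these groups overlapped. With RSEM counts the log2 difference of SEL120-34A from DMSO at 24 h was 1.82 ± 0.14 for SERPINB2 and 1.62 ± 0.12 for SERPINB10. With the reads of both genes summed it was 1.72 ± 0.11 in gene counts and 1.76 ± 0.13 in RSEM counts. The log2 difference of AML874 from DMSO at 24 h was 0.06 ± 0.15 for SERPINB2 in RSEM counts, against 0.17 ± 0.15 in gene counts. For SERPINB10 it was 0.15 ± 0.12 in RSEM counts, against 0.11 ± 0.11 in gene counts.

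**Figure D2:**
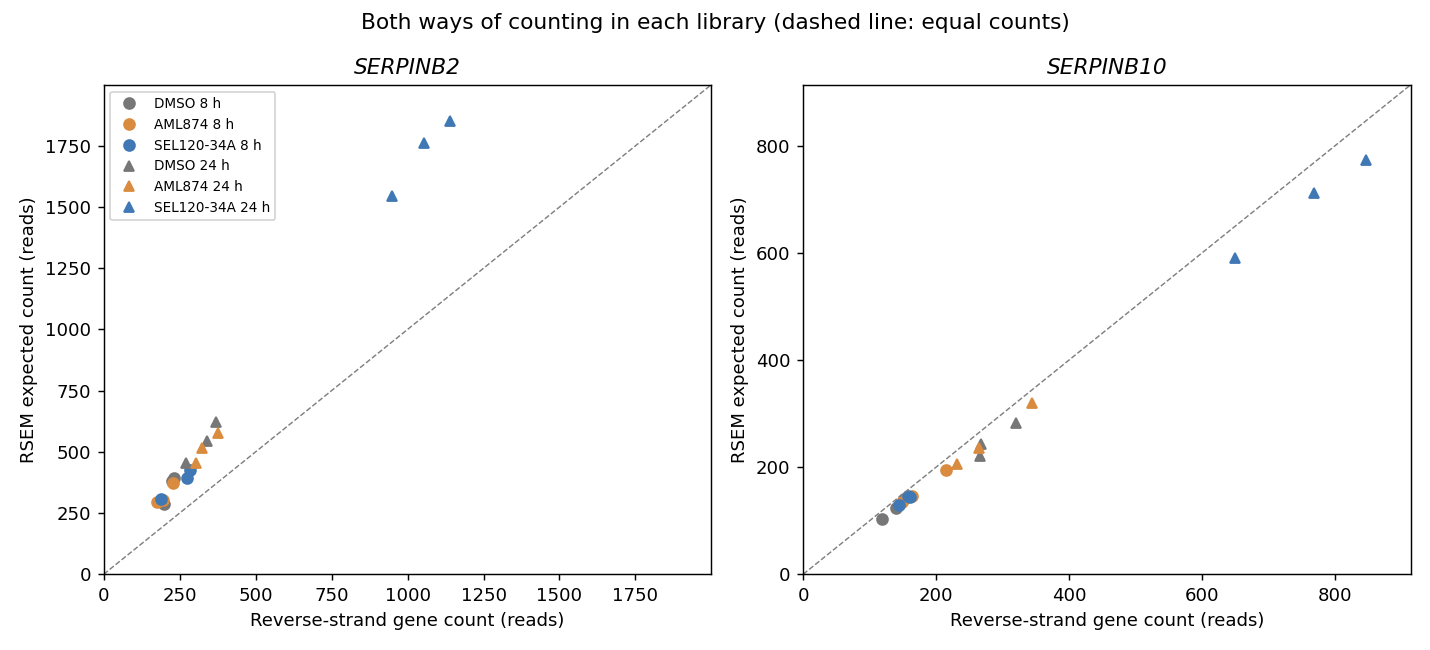
Expected count of RSEM (y axis, reads) against the reverse-strand gene count (x axis, reads) of SERPINB2 and SERPINB10, 1 point per library, circles at 8 h and triangles at 24 h. The dashed line marks equal counts. All SERPINB2 points lie above it, at 1.43 to 1.71 times the gene count, and all SERPINB10 points lie below it.

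The share of the pair that fell to SERPINB2 differed with time in DMSO, and between AML874 and DMSO at 8 h. The ratio of SERPINB2 to SERPINB10 gene counts was 1.52 to 1.68 in DMSO at 8 h and 1.01 to 1.27 in DMSO at 24 h, which did not overlap. In SEL120-34A at 24 h it was 1.25 to 1.48, and in AML874 at 24 h it was 1.09 to 1.31. This ratio describes how the reads of the pair were divided. Levels of different genes are compared on the TPM scale, which takes gene length into account. There, the mean of SERPINB2 was 2.83 times that of SERPINB10 in SEL120-34A at 24 h. With gene counts per kilobase of effective length the same ratio was 1.58, so its size depended on the way of counting. The part of the shared reads in this was not tested.

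SERPINB8, the furin inhibitor, had a median of 41.6 TPM, and all its libraries at 24 h were above all those at 8 h. It stood at 56.7, 55.4 and 55.4 CPM with DMSO at 8 h. AML874 at 8 h gave 63.3, 64.4 and 63.8 CPM, and SEL120-34A at 8 h gave 65.5, 63.0 and 63.4 CPM. Both compounds were above every DMSO library at 8 h, and they overlapped each other. At 24 h the levels were 72.2, 73.2 and 72.4 CPM with DMSO, 71.9, 73.1 and 74.0 CPM with AML874, and 84.8, 83.0 and 81.1 CPM with SEL120-34A. At 24 h only the SEL120-34A libraries were above those of DMSO. The log2 difference from DMSO was 0.19 ± 0.03 under AML874 and 0.20 ± 0.03 under SEL120-34A at 8 h, and 0.01 ± 0.03 and 0.19 ± 0.03 at 24 h. Without the library that held epithelial reads, the value for AML874 at 24 h was 0.02 ± 0.03. Between the compounds, AML874 minus SEL120-34A, it was -0.00 ± 0.03 at 8 h, with a 95% interval of -0.06 to 0.05, and -0.18 ± 0.03 at 24 h, or -0.17 ± 0.03 without that library. SERPINB8 shares 370 exonic bases with HMSD on the same strand, 6.30% of its own, and RSEM gave 1.09 to 1.15 times its gene count.

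SERPINB1, the inhibitor of neutrophil elastase, was the most abundant of the 8 genes by TPM, with a median of 144 TPM over the 18 libraries. Its level was 210, 201 and 205 CPM with DMSO at 8 h. It was 192, 189 and 192 CPM with AML874 and 180, 183 and 177 CPM with SEL120-34A at 8 h. The 3 groups did not overlap at 8 h, with DMSO highest and SEL120-34A lowest. At 24 h the libraries of DMSO (200 to 210 CPM), AML874 (199 to 206 CPM) and SEL120-34A (206 to 211 CPM) overlapped. The log2 difference from DMSO was -0.10 ± 0.03 under AML874 and -0.19 ± 0.03 under SEL120-34A at 8 h. At 24 h it was -0.00 ± 0.03 and 0.04 ± 0.03, and -0.01 ± 0.03 under AML874 without the library that held epithelial reads.

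SERPINB6, an inhibitor of cathepsin G, had a median of 101 TPM and varied least of the genes, with a highest group mean 1.14 times the lowest. Its level was 107 to 109 CPM with DMSO, 108 to 114 CPM with AML874 and 105 to 106 CPM with SEL120-34A at 8 h. At 24 h it was 102 to 105 CPM with DMSO, 103 to 104 CPM with AML874 and 96.7 to 97.7 CPM with SEL120-34A. The SEL120-34A libraries at 24 h were thus below all others, and the log2 difference from DMSO there was -0.09 ± 0.02. SERPINB9, the granzyme B inhibitor, had 1 read in 1 of the 18 libraries and was listed at 0 TPM in all of them. It did not pass the filter on low counts, so 7 of the 8 genes entered the fit. GZMB, the gene of its target protease, had 0 reads in all libraries.

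PLAU, the urokinase gene, was present at a median of 28.2 TPM and was lower with both compounds at 24 h. Its level at 8 h was 51.7, 51.2 and 52.7 CPM with DMSO, 46.7, 49.3 and 50.0 CPM with AML874, and 52.9, 52.9 and 52.9 CPM with SEL120-34A. AML874 lay below DMSO at 8 h and SEL120-34A just above it. At 24 h DMSO gave 48.3, 43.9 and 44.2 CPM, AML874 gave 41.9, 40.1 and 37.5 CPM, and SEL120-34A gave 38.3, 39.4 and 38.5 CPM. Both compounds lay below all DMSO libraries and overlapped each other. The log2 difference from DMSO at 24 h was -0.19 ± 0.04 with AML874 and -0.23 ± 0.04 with SEL120-34A. Without the library that held epithelial reads it was -0.23 ± 0.04 with AML874. Between the compounds at 24 h, AML874 minus SEL120-34A, it was 0.04 ± 0.04 with a 95% interval of -0.03 to 0.12, and 0.00 ± 0.04 without that library. Exons of C10orf55 cover 31.1% of the exonic bases of PLAU on the opposite strand, and counts made without strand were 0.662 to 0.696 times the reverse-strand counts used here.

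PLAUR, the urokinase receptor gene, had the largest decrease with AML874 among the 8 genes. Its level was 18.2, 17.2 and 19.8 CPM with DMSO at 8 h. AML874 at 8 h gave 13.6, 12.6 and 14.8 CPM, below every DMSO library. SEL120-34A at 8 h gave 16.4, 17.4 and 16.1 CPM, which overlapped DMSO. At 24 h DMSO gave 18.2, 15.5 and 16.8 CPM, AML874 gave 10.4, 9.72 and 8.42 CPM, and SEL120-34A gave 10.3, 12.4 and 11.0 CPM. Both compounds were below all DMSO libraries at 24 h, and they overlapped each other. The log2 difference from DMSO was -0.43 ± 0.08 under AML874 and -0.14 ± 0.08 under SEL120-34A at 8 h, and -0.82 ± 0.09 and -0.59 ± 0.08 at 24 h. Without the library that held epithelial reads, the value for AML874 at 24 h was -0.89 ± 0.09. Between the compounds, AML874 minus SEL120-34A, it was -0.29 ± 0.08 at 8 h and -0.23 ± 0.09 at 24 h, with 95% intervals of -0.46 to -0.11 and -0.42 to -0.05. Without that library the value at 24 h was -0.30 ± 0.09.

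**Figure D3:**
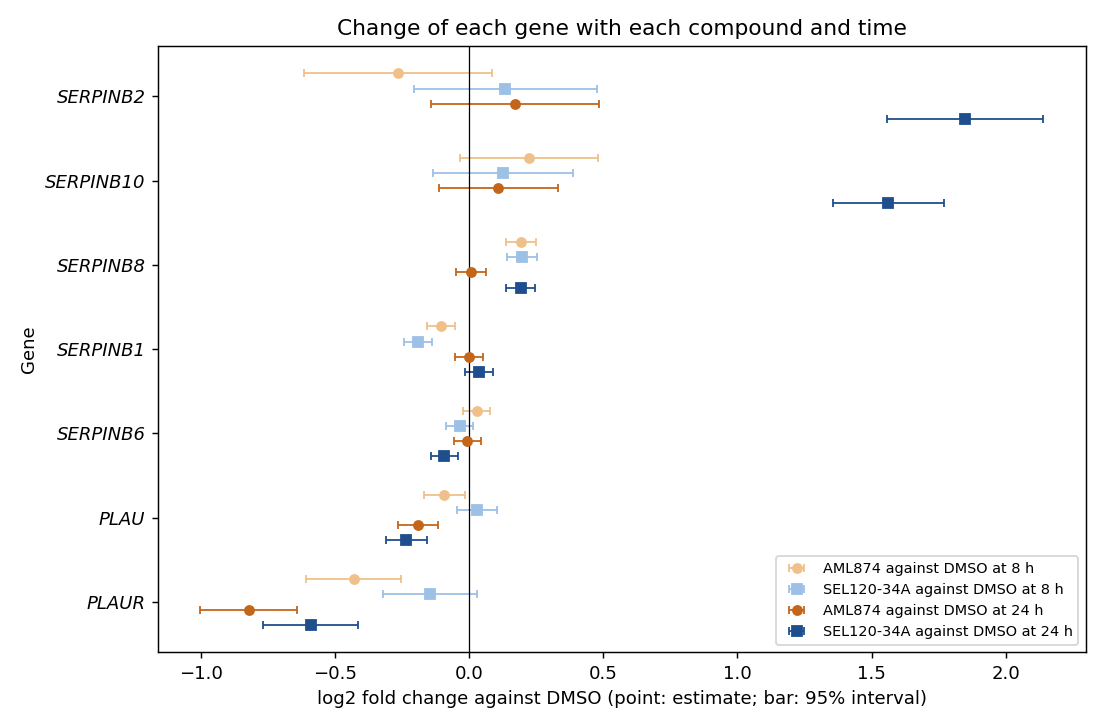
log2 fold change against DMSO (x axis) of 7 genes (y axis) for each compound and time. Points are estimates and bars their 95% intervals. SERPINB2 and SERPINB10 lie at 1.85 and 1.56 with SEL120-34A at 24 h, and PLAUR lies at -0.82 under AML874 and -0.59 under SEL120-34A at 24 h.

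Other quantities moved beside PLAUR and PLAU. The mean log2 level of 10 hypoxia response genes, listed after the data were seen, was 4.76 to 5.04 in DMSO at 24 h, 4.40 to 4.76 with AML874 and 4.49 to 5.00 with SEL120-34A. At 8 h that mean was 4.08 to 4.81 in DMSO, 3.91 to 4.02 with AML874 and 3.82 to 4.50 with SEL120-34A. Within each group the library highest on these genes had more PLAUR than the library lowest on them, for example 18.2 against 15.5 CPM in DMSO at 24 h. Between the times PLAUR went the other way. Its mean in DMSO, AML874 and SEL120-34A was 18.4, 13.7 and 16.6 CPM at 8 h and 16.8, 9.51 and 11.2 CPM at 24 h. The summed level of the 7 myeloid markers was 920 to 949 CPM in DMSO at 24 h, 796 to 807 CPM with AML874 and 836 to 866 CPM with SEL120-34A. At 8 h it was 1068 to 1078 CPM in DMSO, 1016 to 1030 CPM with AML874 and 1033 to 1044 CPM with SEL120-34A. Of 5 tested, 4 were lower and 1 higher with each compound at 24 h at an adjusted p under 0.05. Of all genes, 46.8% passed with AML874 and 37.7% with SEL120-34A. The counts with AML874 were the same without the library that held epithelial reads. The higher gene was PTPRC, at 315 CPM in DMSO, 353 CPM with AML874 and 349 CPM with SEL120-34A. The summed level of the 8 monocyte and macrophage markers was 30.2 to 34.1 CPM in DMSO at 24 h, 16.7 to 19.3 CPM with AML874 and 18.6 to 21.9 CPM with SEL120-34A. At 8 h it was 23.3 to 24.8 CPM in DMSO, 20.6 to 21.2 CPM with AML874 and 30.4 to 33.0 CPM with SEL120-34A. Most of this sum was CSF1R, the gene of the receptor for macrophage colony-stimulating factor. The other markers, mostly below 1 CPM, did not all follow it. Of 6 tested, 2 were higher and 1 lower under AML874 at 24 h at an adjusted p under 0.05 (46.8% of all genes passed). Their median log2 difference was 0.66, or 0.25 with the same counts without the library that held epithelial reads. Under SEL120-34A at 24 h, 1 was higher and 1 lower (37.7% of all genes), with a median of 0.36. CSF1R fell by 0.98 ± 0.06 under AML874 and by 0.70 ± 0.05 under SEL120-34A at 24 h (adjusted p = 4.14e-14 and 5.71e-11, edgeR). It also passed under AML874 without the library that held epithelial reads (adjusted p = 8.24e-17, edgeR). The part of these in the values of PLAUR and PLAU was not tested. In bulk RNA, fewer cells with a transcript and less of it per cell cannot be told apart.

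Set against all 20920 genes fitted, counts of called genes among the 8 were as follows, where called means a Benjamini-Hochberg adjusted p under 0.05 in edgeR's quasi-likelihood test. At 8 h, 4 of the 7 fitted genes were called with AML874, against 39.6% of all genes, and 2 of 7 with SEL120-34A, against 45.1%. At 24 h, 2 of 7 were called with AML874, against 46.8%, and 6 of 7 with SEL120-34A, against 37.7%. Between the compounds 4 of 7 were called at 8 h, against 31.2%, and 4 of 7 at 24 h, against 19.6%. For the change of the difference from DMSO between 8 h and 24 h, 3 of 7 were called with AML874, against 23.6%, and 5 of 7 with SEL120-34A, against 27.3%. These contrasts share libraries and were in view when the genes were listed, so nothing is read from these counts. The median log2 difference of the 7 genes from DMSO was -0.09 under AML874 and 0.03 under SEL120-34A at 8 h, and -0.00 and 0.04 at 24 h, beside 0.00, -0.00, 0.00 and 0.01 over all genes.

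The order of the groups differed between genes. In SERPINB2 only the step to SEL120-34A at 24 h separated neighbouring groups, from a mean of 2.73 to 8.76 CPM, and the 5 lower groups overlapped in turn. SERPINB10 had another step, from 1.42 CPM in AML874 at 8 h to 2.11 CPM in DMSO at 24 h. SERPINB8 was ordered by time and then by compound, with separate steps from 55.8 CPM in DMSO at 8 h to 63.9 CPM, from 64.0 to 72.6 CPM, and from 73.0 to 83.0 CPM. PLAUR was lowest with AML874 at 24 h (9.51 CPM) and SEL120-34A at 24 h (11.2 CPM), which overlapped. AML874 at 8 h (13.7 CPM) came next and was separate from the groups on both sides. SEL120-34A at 8 h (16.6 CPM) followed and overlapped DMSO at 24 h (16.8 CPM). Ranked by median TPM over all libraries, the order was SERPINB1 at 144, SERPINB6 at 101, SERPINB8 at 41.6, PLAU at 28.2, PLAUR at 18.4, SERPINB2 at 2.99 and SERPINB10 at 1.07 TPM. The transcript of the inhibitor SERPINB2 was therefore below that of PLAU in every group, also in SEL120-34A at 24 h with 11.5 ± 1.38 against 24.2 ± 0.73 TPM (SD, n = 3).

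Culture time was compared in the DMSO libraries. Whether this comparison weighed in the choice of the 8 genes is not recorded, so its values too are a description. Of the 7 fitted genes, 4 were past the threshold between 24 h and 8 h, against 42.5% of all genes. SERPINB10 was higher at 24 h by 0.80 ± 0.12 on the log2 scale and SERPINB8 by 0.38 ± 0.03. In both, all 3 libraries at 24 h were above all 3 at 8 h. PLAU was lower at 24 h, with a difference of -0.19 ± 0.04, again without overlap, and SERPINB6 had a difference of -0.06 ± 0.02. SERPINB6 fell short of the threshold in 7 of 10 other settings and in 14 of 18 runs that left out 1 library. For SERPINB2 the difference was 0.31 ± 0.16, for PLAUR -0.13 ± 0.08 and for SERPINB1 -0.02 ± 0.03. The reads of SERPINB2 and SERPINB10 summed were higher at 24 h by 0.52 ± 0.13.

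Plasminogen itself and the other genes around urokinase were looked at as lists, which were also chosen with earlier results known. Of 13 genes for plasminogen, its other activator and their inhibitors, 8 passed the filter. PLG, the gene of plasminogen, had 13 reads in all 18 libraries, and PLAT, the gene of tissue plasminogen activator, had group means of 0.100 to 0.175 CPM. The genes of this list that reached 1 CPM were SERPINI1, A2M, F12 and HGF. With AML874, 1 gene rose and 2 fell at 8 h, where 39.6% of all genes were called, and 3 rose and 1 fell at 24 h, where 46.8% were. With SEL120-34A, 5 rose and 1 fell at 8 h, where 45.1% of all genes were called, and 3 rose and 1 fell at 24 h, where 37.7% were. Filtered at 1 CPM in 3 libraries, 2 in place of 4 passed with SEL120-34A at 24 h. The median log2 difference of the 8 genes was 0.15 under AML874 and 0.38 under SEL120-34A at 8 h, and 0.40 and 0.53 at 24 h, where the medians over all genes are those given above. With AML874 at 24 h, 2 rose and 1 fell without the library that held epithelial reads.

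A2M, the gene of alpha-2-macroglobulin, a broad protease trap, stood at 1.57 to 2.19 CPM with DMSO at 24 h and at 4.34 to 4.80 CPM with SEL120-34A. It rose by 1.26 ± 0.11 on the log2 scale with SEL120-34A at 24 h (adjusted p = 1.07e-11, edgeR) and by 0.45 ± 0.10 at 8 h (adjusted p = 0.000576, edgeR). With AML874 at 24 h it was higher by 0.38 ± 0.11 (adjusted p = 0.0051, edgeR), but by 0.21 ± 0.11 without the library that held epithelial reads (adjusted p = 0.137, edgeR). It was 0.26 without DMSO replicate 2 at 24 h (adjusted p = 0.0737, edgeR). SERPINI1, the gene of neuroserpin, an inhibitor of tissue plasminogen activator, rose by 0.84 ± 0.11 with SEL120-34A at 8 h (adjusted p = 2.22e-07, edgeR), from 2.25 ± 0.20 to 4.03 ± 0.19 CPM (SD, n = 3). F12, the gene of coagulation factor XII, fell by 0.31 ± 0.04 under AML874 and by 0.24 ± 0.04 under SEL120-34A at 24 h (adjusted p = 5.35e-07 and 3.77e-05, edgeR). Under AML874 it fell by 0.30 ± 0.05 without the library that held epithelial reads. HGF, whose product is a growth factor built like plasminogen, rose by 1.11 ± 0.09 in DMSO between 8 h and 24 h (adjusted p = 2.17e-07, edgeR).

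Of 18 receptors and partners of plasminogen and urokinase, 14 were tested. With AML874, 3 rose and 6 fell at 8 h (39.6% of all genes called), and 1 rose and 5 fell at 24 h (46.8% of all genes), with the same counts at 24 h without the library that held epithelial reads. With SEL120-34A, 2 rose and 4 fell at 8 h (45.1% of all genes), and 1 rose and 8 fell at 24 h (37.7% of all genes). Without DMSO replicate 1 at 24 h, 5 in place of 9 of the 14 passed with SEL120-34A at 24 h. The median of the 14 genes was -0.10 under AML874 and -0.01 under SEL120-34A at 8 h, and -0.14 and -0.13 at 24 h. The gene that rose at 24 h was the same with both compounds. It was PLGRKT, which encodes a membrane receptor for plasminogen, with 10.1 ± 0.20 CPM in DMSO, 15.1 ± 0.25 CPM with AML874 and 15.0 ± 0.81 CPM with SEL120-34A (SD, n = 3). Its log2 rise was 0.58 ± 0.05 and 0.57 ± 0.05 (adjusted p = 4.37e-12 and 1.01e-11, edgeR). ITGB2, the integrin chain that pairs with ITGAM to bind the urokinase receptor, fell by 0.43 ± 0.03 and 0.33 ± 0.03 at 24 h (adjusted p = 2.91e-11 and 7.15e-09, edgeR). ENO1, a glycolytic enzyme that also binds plasminogen at the cell surface, fell by 0.33 ± 0.03 and 0.24 ± 0.03 at 24 h (adjusted p = 2.09e-08 and 5.23e-06, edgeR). Without the library that held epithelial reads, the log2 differences under AML874 at 24 h were 0.59 ± 0.05 for PLGRKT, -0.46 ± 0.03 for ITGB2 and -0.36 ± 0.03 for ENO1. ANXA2, which with S100A10 forms another plasminogen receptor, fell by 0.24 ± 0.03 with AML874 at 8 h (adjusted p = 6.28e-07, edgeR). In DMSO it fell by 0.81 ± 0.03 between 8 h and 24 h (adjusted p = 1.05e-17, edgeR).

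**Figure D4:**
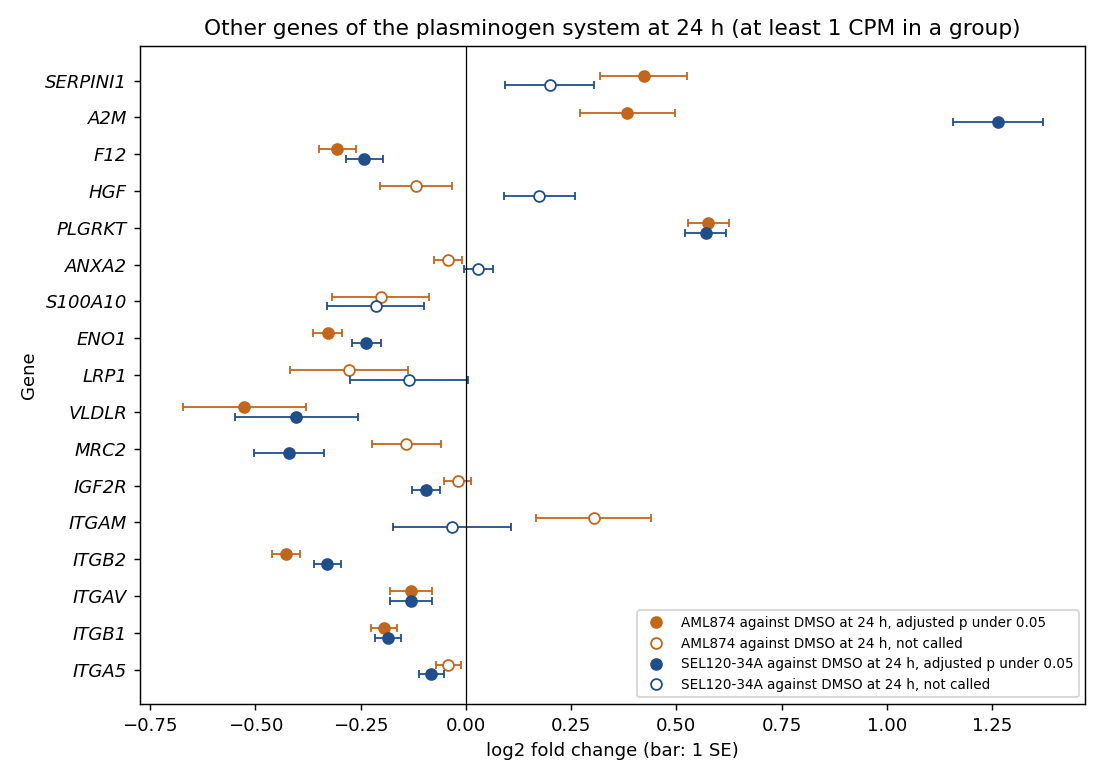
log2 fold change against DMSO at 24 h (x axis) of the genes of both plasminogen lists that reached 1 CPM in a group (y axis). Bars are 1 SE, and filled points passed an adjusted p of 0.05. PLGRKT lies at 0.58 and 0.57 with AML874 and SEL120-34A, and A2M lies at 1.26 with SEL120-34A.

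Proteases that clade B serpins inhibit, with related granule proteins, formed a list of 12, of which 8 passed the filter. With AML874, 6 fell at 8 h (39.6% of all genes called), and 3 rose and 4 fell at 24 h (46.8% of all genes). Without the library that held epithelial reads, 9 genes passed the filter, of which 4 rose and 4 fell with AML874 at 24 h. With SEL120-34A, 3 fell at 8 h (45.1% of all genes), a number of calls that was 5 without any of 3 single libraries (DMSO replicate 3 at 8 h, DMSO replicate 3 at 24 h or SEL120-34A replicate 1 at 8 h). At 24 h, 2 rose and 5 fell with SEL120-34A (37.7% of all genes). The median of the 8 genes was -0.20 under AML874 and -0.10 under SEL120-34A at 8 h, and -0.12 and -0.13 at 24 h. CTSG, the gene of cathepsin G, a target of SERPINB1 and SERPINB6, rose by 0.42 ± 0.07 under AML874 and 0.41 ± 0.07 under SEL120-34A at 24 h (adjusted p = 6.01e-06 and 1.18e-05, edgeR). At 8 h CTSG fell by 0.21 ± 0.07 under SEL120-34A (adjusted p = 0.02, edgeR). FURIN, the gene of the convertase that SERPINB8 inhibits, fell by 0.18 ± 0.03 with AML874 at 24 h (adjusted p = 6.78e-06, edgeR). AZU1, the gene of azurocidin, a granule protein related to elastase, fell by 1.48 ± 0.14 and 1.39 ± 0.14 at 24 h, from 2.07 ± 0.40 CPM to 0.740 ± 0.057 and 0.789 ± 0.081 CPM (SD, n = 3). The adjusted p of AZU1 in edgeR was 8.63e-11 and 5.53e-10. On leaving out the library that held epithelial reads, the log2 differences under AML874 at 24 h were 0.44 ± 0.08 for CTSG, -0.20 ± 0.03 for FURIN and -1.52 ± 0.17 for AZU1. ELANE, the gene of neutrophil elastase, had 38 reads in all libraries.

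Of 12 matrix metalloproteinases and their inhibitors, 6 were tested. With AML874, 4 fell at 8 h (39.6% of all genes called) and all 6 fell at 24 h (46.8% of all genes), or 5 of 6 without the library that held epithelial reads. Scaled by library totals alone, 2 in place of 4 passed with AML874 at 8 h. With SEL120-34A, 1 rose and 2 fell at 8 h (45.1% of all genes), and 4 fell at 24 h (37.7% of all genes). The median of the 6 genes was -0.31 under AML874 and -0.20 under SEL120-34A at 8 h, and -0.36 and -0.26 at 24 h. MMP25, a membrane-bound metalloproteinase of leukocytes, fell by 1.44 ± 0.06 under AML874 and by 0.82 ± 0.06 under SEL120-34A at 24 h (adjusted p = 1.43e-19 and 3.08e-13, edgeR). It stood at 14.2 ± 0.71 CPM with DMSO, 5.26 ± 0.44 CPM with AML874 and 8.07 ± 0.50 CPM with SEL120-34A (SD, n = 3). TIMP2, an inhibitor of metalloproteinases, fell by 0.36 ± 0.04 and 0.27 ± 0.04 (adjusted p = 5.79e-10 and 2.55e-07, edgeR), and MMP9 had 2 reads in all libraries. With that library left out, the log2 differences under AML874 at 24 h were -1.49 ± 0.07 for MMP25 and -0.39 ± 0.04 for TIMP2. Of 7 serpins of other clades, 4 were tested, and SERPINA1 alone reached 1 CPM. SERPINA1, the gene of alpha-1-antitrypsin, fell by 0.79 ± 0.11 in DMSO between 8 h and 24 h (adjusted p = 1.36e-07, edgeR).

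The neighbours of SERPINB2 were listed after their values had been seen. Within 1 Mb of its start, 14 protein-coding genes are annotated and 6 passed the filter. The other 7 clade B serpins of that stretch, SERPINB3, SERPINB4, SERPINB5, SERPINB7, SERPINB11, SERPINB12 and SERPINB13, had 0 to 29 reads each in all 18 libraries together. With SEL120-34A at 24 h, SERPINB2 and SERPINB10 differed from DMSO by 1.85 and 1.56 on the log2 scale. SERPINB8, which starts 98.2 kb from SERPINB2, differed by 0.19 ± 0.03. On the other side, KDSR differed by 0.06 ± 0.03 (adjusted p = 0.113, edgeR) and VPS4B by 0.02 ± 0.03 (adjusted p = 0.621, edgeR). BCL2, which lies beyond both, was higher by 0.24 ± 0.03 with SEL120-34A (adjusted p = 2.34e-08, edgeR). With AML874 at 24 h, all libraries kept, BCL2 was higher by 0.23 ± 0.03 (adjusted p = 4.59e-08, edgeR).

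**Figure D5:**
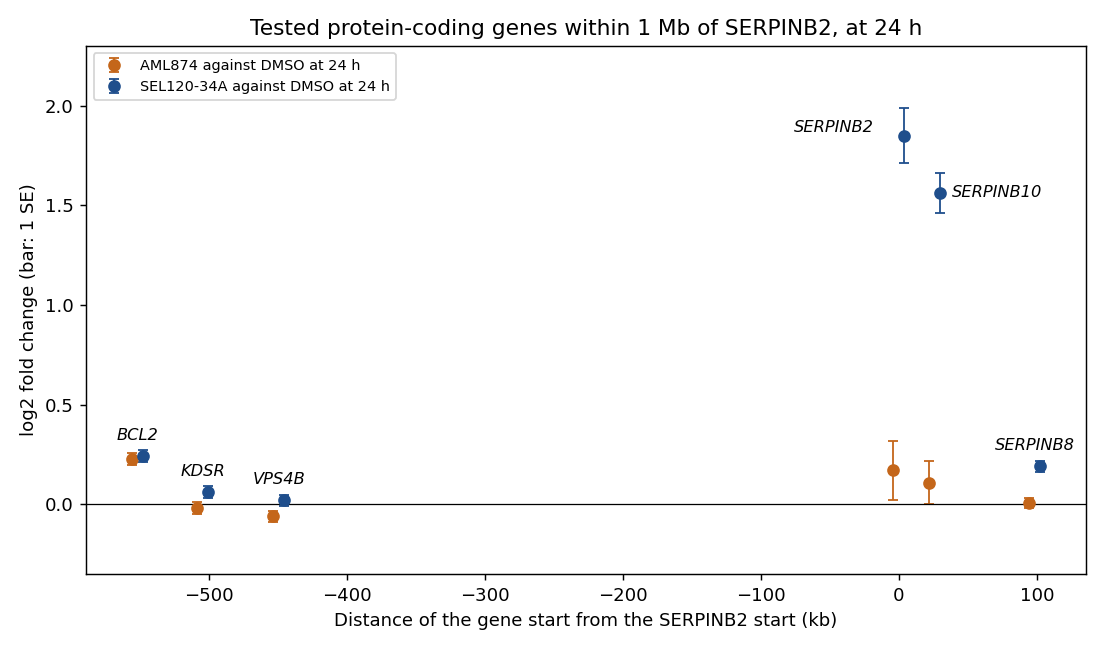
log2 fold change against DMSO at 24 h (y axis, bars 1 SE) of the 6 protein-coding genes that passed the filter within 1 Mb of SERPINB2, by the distance between gene starts in kb (x axis). SERPINB2 and SERPINB10 lie at 1.85 and 1.56 with SEL120-34A, and the other 4 genes lie at 0.24 or lower.

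The genes most like SERPINB2 across the 18 libraries, among 10495 genes of at least 5 CPM, were found by Pearson's r of log2 CPM, given as a description. They were ACSM3 (r = 0.97), ZNF438 (r = 0.96), MAPK14 (r = 0.93), CPXM1 (r = 0.93) and IFT57 (r = 0.93). SERPINB10, below 5 CPM, had r = 0.95 with SERPINB2. The 3 libraries of SEL120-34A at 24 h, where SERPINB2 stood apart, enter each of these values. For PLAU they were PLK3 (r = 0.97), ADAP2 (r = 0.96), FXYD5 (r = 0.96), PKIB (r = 0.96) and PABIR2 (r = 0.96). For PLAUR they were ARRB2 (r = 0.98), MAP2K1 (r = 0.97), TOM1 (r = 0.96), PPP1CB (r = 0.96) and APOBR (r = 0.96). The 18 points share the 6 treatments and times and are not independent.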

How the data were processed

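RNA from 18 libraries of OCI-AML1 cells was measured by RNA-seq after extraction with TRIzol and a column and selection of polyadenylated RNA, per the labels. The authors' tools and build were STAR 2.7.1a, RSEM 1.3.2 and GRCh38, per the submitters' processing notes; the annotation release is not given in the sources used here. The deposited files give read counts per gene without strand and on each strand. They also give the expected counts of RSEM, which the authors' program estimates per gene, and deposited TPM values, which are scaled for length and depth.

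The reverse-strand counts were used, and 4 summary lines per file, with 21.9 to 25.5% of the reads, were left out. Of 60609 identifiers 60295 had a symbol. Counts were filtered with filterByExpr, scaled with TMM and fitted with edgeR 4.0.16 (robust quasi-likelihood, 6 groups, 12 residual degrees of freedom) in R 4.3.3, with Benjamini-Hochberg adjustment over 20920 genes. The script was tested on simulated data. Intervals are 95% intervals of the fit, and SE is the standard error of a log2 difference. Expected counts were rounded to whole numbers before testing.

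The 8 genes and all lists were chosen with earlier results of these data known, so no p-value is given for the 8 genes. A test of them between 24 h and 8 h in DMSO had been planned and is given as values. From each list, up to 4 genes per comparison with DMSO were picked out by p, among called genes of at least 1 CPM. Only some of these are named, so the named genes are a selection made with the values known. CASP1, CTSS, ITGB1, MRC2, MMP14 and TIMP1 were picked out by p but are not described. Other genes named for their reads at or near 0, and the neighbours of SERPINB2, were chosen after their values were seen. Other settings tried were DESeq2 1.42.0, limma-voom (limma 3.58.1), the size factors of DESeq2 in edgeR, scaling by totals only, a filter of 1 count, a filter of 1 CPM in 3 libraries, a replicate block, a fit to the compared groups only, unstranded counts, RSEM counts, and leaving out each library. Only in AML874 against DMSO at 24 h did all 3 same-numbered pairs deviate together, with correlations of 0.375, 0.174 and 0.241 over 10513 genes. The numbers may therefore pair those libraries. Single pairs in other comparisons reached -0.519 and 0.346. The values given come from the fit without the replicate block.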

Additional observations from a re-analysis of the deposited data

Results flagged for a closer look

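The change of the log2 difference from DMSO between 8 h and 24 h was past an adjusted p of 0.05 in edgeR in 3 of the 7 fitted genes with AML874, against 23.6% of all genes, and 5 of 7 with SEL120-34A, against 27.3%. The genes had been chosen with such differences known, so these are values with no test, and nothing is read from the counts. With SEL120-34A, the difference at 24 h minus that at 8 h was 1.71 ± 0.21 on the log2 scale for SERPINB2, 1.44 ± 0.16 for SERPINB10 and 0.23 ± 0.04 for SERPINB1. It was -0.26 ± 0.05 for PLAU and -0.45 ± 0.12 for PLAUR. With AML874 it was 0.10 ± 0.04 for SERPINB1, -0.19 ± 0.04 for SERPINB8 and -0.39 ± 0.12 for PLAUR, or 0.10 ± 0.04, -0.18 ± 0.04 and -0.46 ± 0.12 without the library that held epithelial reads. SERPINB1 was thus below DMSO in every library of both compounds at 8 h and overlapped DMSO at 24 h. SERPINB8 was above DMSO in every library of AML874 at 8 h and overlapped DMSO at 24 h.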

How the results depend on the processing

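The 63 log2 differences of the 7 fitted genes are descriptions. None of those past the threshold changed sign under another setting or without a library, and 18 changed their side of it. Those of SERPINB2, SERPINB10, SERPINB8, PLAU and PLAUR with SEL120-34A at 24 h, and of PLAU and PLAUR with AML874 at 24 h, kept their side in every alternative run.

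The number of the 7 genes called ranged, on leaving out each library, from 2 to 4 for AML874 against SEL120-34A at 8 h and from 1 to 3 for the late minus early effect of AML874. The lower values came without AML874 replicate 1 or SEL120-34A replicate 3 at 8 h, and without DMSO replicate 1 at 8 h. The ratio of RSEM to gene counts had a median of 1.29 for both overlapping genes summed, against 1.63 for SERPINB2 alone, and the ratio of SERPINB2 to SERPINB10 was 1.58 per kilobase, against 2.83 in TPM. Scaling by library totals alone moved the share of called genes that were higher from 49.8 to 63.5% (AML874) and 66.5% (SEL120-34A) at 8 h, and from 46.7 to 57.1% for DMSO over time. For the late minus early effects it fell from 47.1 to 30.7% and from 52.2 to 29.1%.

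With the replicate block, 9674 genes were called for AML874 against DMSO at 24 h, and 10421 in a model of only those groups with the block, which was added after seeing the data, against 9799, and no call of the 7 genes changed there. In the other comparisons same-numbered libraries did not all deviate together, and the block moved no count of called genes by over 1.5 times. A gene with 0 reads cannot be told from one below 0.0211 to 0.0303 CPM.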
